A study of Mus musculus with 60 samples.

Results

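The lungs of mice given the high dose of benzo(ghi)perylene (BghiP), a polycyclic aromatic hydrocarbon of fused benzene rings, were compared with the lungs of vehicle-treated mice. The comparison was defined by tissue and dose alone and took in 10 of the 60 arrays of the series, 5 from the high-dose group, called D3, and 5 from the vehicle group, called D0. All animals were male Muta Mouse, a transgenic strain used in mutation tests, about 10 weeks old. D3 mice received 25 mg/kg-bw/day of BghiP in olive oil by gavage for 28 days, and D0 mice received olive oil alone for the same 28 days. Lungs were taken 72 hours after the last dose, and RNA came from a random slice of the right lung of each mouse. Lungs of mice at 6.25 mg/kg-bw/day (D1) and 12.5 mg/kg-bw/day (D2) and the livers and forestomachs of the same animals were used only for side-by-side values and as part of the fits.

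Polycyclic aromatic hydrocarbons such as benzo(a)pyrene are known to bind the aryl hydrocarbon receptor, a transcription factor that switches on the cytochrome P450 genes Cyp1a1, Cyp1a2 and Cyp1b1, whose enzymes can turn such compounds into products that bind DNA. Damaged DNA activates the transcription factor p53, which raises genes for cell cycle arrest, such as Cdkn1a (p21), and for cell death, such as Bax. The lung is built of alveolar, airway, vascular, immune and connective tissue cells, and its outer surface is covered by a mesothelium, so that a slice of a lobe holds all of them in proportions that may vary.

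Each lung RNA was labelled with Cy5 and hybridised with a Cy3-labelled reference RNA pooled from 11 mouse cell lines, and a value below is a log2 ratio of lung to reference after loess normalization. A change is the D3 mean minus the D0 mean of these ratios, given with its standard error (SE). The 20 lung arrays lay on 5 slides, each slide held 1 lung array of each dose, and the slide was a term of the fit. Each dose also had its own column on the slides, so that dose and column cannot be told apart. The share of probes well above background in Cy5 ran from 34.9% to 58.6% over the D0 lungs and from 44.3% to 57.9% over the D3 lungs. Surfactant protein C (Sftpc) was at 8.13 or higher in every D0 and D3 lung, and the alveolar type 1 marker Ager at 5.15 or higher, against medians of 0.24 and -0.28 over the livers and forestomachs. The vehicle forestomach of mouse 2 carried lung markers, with Sftpc at 7.57, Sftpb at 5.85, the club cell gene Scgb1a1 at 6.26 and Ager at 3.26, and the tissue comparison is given with and without it. Other forestomachs had some of these markers and were kept throughout. Sftpc was at 4.35 in D2 mouse 14 and 2.28 in D2 mouse 12. Scgb1a1 was at 5.77 in D2 mouse 14 and 5.50 in D1 mouse 7, against a median of 2.09. Ager was at 0.04 or lower in all of them.

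Arrays that stood apart were looked for with marker lists. The vehicle lung of mouse 1 had a mean of 4.98 over 9 skeletal muscle genes, relative to the D0 mean, against -1.56 to -0.76 in the other D0 lungs, and a mean of 2.82 over 6 squamous epithelium genes, against -0.97 to -0.51. In the vehicle lung of mouse 2 the mean over 15 heat shock genes was 1.01, against -0.35 to -0.10 in the other D0 lungs. The vehicle lung of mouse 4 had a mesothelial mean of 0.62, against -0.31 to -0.05. The high-dose lung of mouse 20 had a fat cell mean of 1.87, against -0.37 to -0.01 in the other D3 lungs. These 4 lungs were kept in the fit, and the counts of calls are given with and without each of them. Adjusted p-values of the main genes are given also without D0 mice 1 and 2, and for the mesothelial genes without D0 mouse 4. Fewer cells of a type and less RNA per cell cannot be told apart in such samples.

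Of 31022 probes tested, 17 were called higher and 4 lower in D3 lungs, where a call needed both a limma p of at most 0.05, Benjamini-Hochberg adjusted over the 31022 probes, and a fold of 1.5 or more. The called probes were 0.0548% and 0.0129% of the probes tested. At the adjusted p alone, 131 probes were higher, or 0.422%, and 45 lower, or 0.145%, and 168 of these 176 lay on the same side on all 5 slides. An unadjusted p under 0.05 was reached by 2911 probes on the higher side, or 9.38%, and 1927 on the lower side, or 6.21%, where 1551 in all would be met by chance. Without the slide term no probe passed the adjusted p in limma, with a lowest value of 0.195, and 1491 probes had an unadjusted p under 0.05. The calls therefore rest on differences within slides. In a fit of the D0 and D3 lungs alone, with the slide term kept, 0 probes were called and 0 passed the adjusted p. The calls thus rest as well on the spread estimated with the D1 and D2 lungs. They also rest on the vehicle lungs chosen: without D0 mouse 1 there were 12 calls, without D0 mouse 2 there was 1, Gabra3, and without both there were 0, with 0 at the adjusted p alone. Apart from Gabra3 and Thyn1, every probe named below as past the adjusted p lost it without D0 mouse 2. Without D0 mouse 1, 10 of the 21 called probes stayed called, among them Lrrn4, Upk3b, Rspo1, Wscd2 and Rsrp1. Leaving out 1 of the other D0 mice, 3, 4 or 5, gave 13, 20 or 59 calls, and leaving out D3 mouse 16, 17, 18, 19 or 20 gave 3, 1, 7, 5 or 18.

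**Figure D1:**
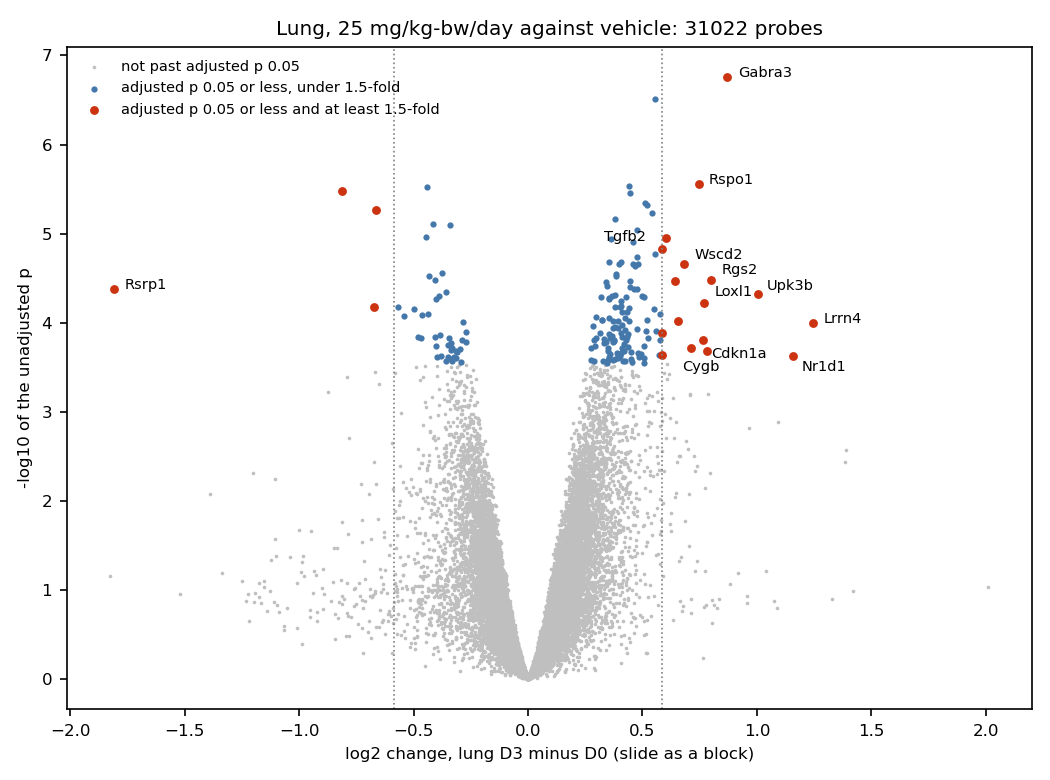
Change of each of the 31022 probes in lung, D3 minus D0 on the log2 scale (x axis), against -log10 of its unadjusted p (y axis), with dotted lines at 1.5-fold. Red points are the 21 called probes, of which 17 lie to the right and 4 to the left, and blue points passed the adjusted p with a smaller change.

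Of the p53 targets for arrest and stress signalling, a few rose. Of 18 genes on this list, 14 had a higher mean in D3 lungs and the median change was 0.22, against 0.01 over all probes. Ephx1 and Ccnd1 passed the adjusted p, 8 members had an unadjusted p under 0.05 on the higher side and 0 on the lower side, and the background shares for those counts are 0.422% and 9.38%. The mean over the list was -0.11 to 0.09 in the 5 D0 lungs and 0.13 to 0.47 in the 5 D3 lungs, so that the groups did not overlap. In D1 lungs it ran from -0.03 to 0.05 and in D2 lungs from 0.01 to 0.10, both within or close to the D0 range. The list median was 0.02 at D1 and 0.05 at D2, and at D3 it was 0.21 without D0 mouse 1 and 0.20 without D0 mouse 2. By the brightest probe of each gene, no member passed the adjusted p without either of these mice, with 0.0589 and 0.0652 for Ephx1 and 0.0829 and 0.119 for Ccnd1. A second probe of Ephx1 was at 0.0366 without D0 mouse 1 and at 0.0573 without D0 mouse 2.

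Cdkn1a, which encodes p21, the inhibitor of cyclin-dependent kinases, was measured by 2 probes. The probe designed on NM_001111099 gave -0.96, -0.67, -0.28, -0.85 and -1.57 in D0 mice 1 to 5 and -0.02, -0.18, -0.41, 0.13 and -0.04 in D3 mice 16 to 20. The D3 lungs were higher on 4 of 5 slides, and only D3 mouse 18 fell within the D0 range. This probe was well above background on 1 of 5 D0 lungs and on all 5 D3 lungs, so that it could pass the filter through the D3 lungs and its vehicle level is mostly a background reading. Its measured change was 0.76 ± 0.16 (SE, n = 5), and the limma adjusted p was 0.0423, or 0.0831 without D0 mouse 1 and 0.117 without D0 mouse 2. The probe on NM_007669, above background on all of these lungs, was at 0.70 ± 0.20 with an adjusted p of 0.106 in limma, and was higher on 4 of 5 slides.

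Bax, a pore-forming protein of the mitochondrial death pathway, rose from -1.30, -1.18, -1.12, -0.82 and -1.15 in the D0 lungs to -0.70, -0.63, -0.90, -0.20 and -0.43 in the D3 lungs. The D3 lung was higher on every slide, and the ranges met only at D0 mouse 4 and D3 mouse 18. The change was 0.54 ± 0.08 (SE, n = 5), with an adjusted p of 0.0167 in limma and 1.46-fold, just under the fold needed for a call. Without D0 mouse 1 the adjusted p was 0.047, and without D0 mouse 2 it was 0.0652. Ephx1, the microsomal epoxide hydrolase, which opens epoxides formed from polycyclic aromatic hydrocarbons, read 1.11, 1.33, 0.90, 1.13 and 1.31 in D0 lungs and 1.70, 1.55, 1.51, 1.75 and 1.65 in D3 lungs, with no overlap. Its change was 0.48 ± 0.08, with an adjusted p of 0.0244, and its second probe changed by 0.44, with an adjusted p of 0.0154. Ccnd1, the G1 cyclin D1, which is on the list as a p53-linked gene but drives the cell cycle, changed by 0.48, with an adjusted p of 0.0409. Its D0 range was 0.78 to 1.35 and its D3 range 1.30 to 1.58, and D0 mouse 4 was the high one of its group.

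Gdf15, a secreted stress cytokine, had the largest change of the list, 0.97 ± 0.25, but an adjusted p of 0.0868. Its values were -2.14, -1.56, -1.66, -2.51 and -2.44 in D0 lungs and -1.32, -1.30, -1.40, -1.13 and -0.32 in D3 lungs, and the groups did not overlap. Phlda3, an inhibitor of Akt signalling, changed by 0.53, with an adjusted p of 0.0726. Mdm2, the ubiquitin ligase that limits p53, changed by 0.06, and Sesn1 by -0.14, and neither had an unadjusted p under 0.05. Of the 15 p53 targets for apoptosis, 7 had higher means, the median was -0.01, and 0.10 without D3 mouse 18, and Bax alone passed the adjusted p. Aen, a nuclease, changed by 0.46, with an adjusted p of 0.0544. The death receptor Fas was at -0.18 and Tnfrsf23, a decoy receptor, at -0.23, both lower at an unadjusted p under 0.05.

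Promoter sequence was compared for the p53 targets, the aryl hydrocarbon receptor targets and the clock repressors and outputs, but not for the Nrf2 genes. RefSeq promoters of GRCm38.p6 ran from 250 bases before to 50 after a gene's start. They were found for 15 of the 18 arrest genes, 12 of the 15 apoptosis genes, 9 of the 12 receptor targets and 10 of the 13 clock genes. The p53 half-site, read on both strands, was in the promoter of 6 arrest genes and 3 apoptosis genes, which is 33.3% and 26.7% of their promoters, against 8.36% of all 32851 promoters. The receptor core GCGTG, read on both strands, was in promoters of 5 receptor targets, or 55.6%, against 32.4% of all. A match is a match of letters only. Shown are Bax, which passed the adjusted p, Cdkn1a, a standard p53 target that did not pass on the probe well above background in all D0 lungs, Ccng1 and Mdm2, which hold a half-site and did not pass, and Cyp1a1, the standard target of the receptor. Capitals mark half-sites in the first 4 and GCGTG in Cyp1a1, and each sequence is printed on its gene's strand, 5′ to 3′.
Cdkn1a, chr17:29090729-29091028, plus strand: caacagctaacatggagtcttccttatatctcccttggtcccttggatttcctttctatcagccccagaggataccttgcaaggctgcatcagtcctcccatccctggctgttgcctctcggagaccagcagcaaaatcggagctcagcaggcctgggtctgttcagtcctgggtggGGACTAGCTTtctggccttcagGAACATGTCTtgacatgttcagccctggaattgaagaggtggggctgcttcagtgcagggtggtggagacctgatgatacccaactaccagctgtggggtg
Bax, chr7:45466849-45467148, minus strand: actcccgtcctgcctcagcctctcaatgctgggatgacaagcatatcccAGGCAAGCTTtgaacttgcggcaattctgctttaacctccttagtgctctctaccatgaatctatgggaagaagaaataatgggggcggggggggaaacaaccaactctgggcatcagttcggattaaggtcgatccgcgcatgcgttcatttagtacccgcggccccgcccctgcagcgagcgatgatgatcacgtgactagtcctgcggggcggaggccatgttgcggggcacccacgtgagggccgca
Ccng1, chr11:40755237-40755536, minus strand: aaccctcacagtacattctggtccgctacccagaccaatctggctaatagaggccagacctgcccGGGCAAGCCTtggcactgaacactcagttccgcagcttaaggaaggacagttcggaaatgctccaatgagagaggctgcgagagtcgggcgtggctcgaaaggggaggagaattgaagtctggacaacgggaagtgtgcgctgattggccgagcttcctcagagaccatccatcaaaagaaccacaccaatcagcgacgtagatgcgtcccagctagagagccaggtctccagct
Mdm2, chr10:117710709-117711008, minus strand: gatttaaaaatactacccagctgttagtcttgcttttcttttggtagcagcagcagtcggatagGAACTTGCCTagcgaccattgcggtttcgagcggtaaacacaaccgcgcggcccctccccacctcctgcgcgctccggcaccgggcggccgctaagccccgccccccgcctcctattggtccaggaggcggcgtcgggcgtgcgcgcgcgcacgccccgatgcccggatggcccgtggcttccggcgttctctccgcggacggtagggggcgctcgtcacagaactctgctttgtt
Cyp1a1, chr9:57697363-57697662, plus strand: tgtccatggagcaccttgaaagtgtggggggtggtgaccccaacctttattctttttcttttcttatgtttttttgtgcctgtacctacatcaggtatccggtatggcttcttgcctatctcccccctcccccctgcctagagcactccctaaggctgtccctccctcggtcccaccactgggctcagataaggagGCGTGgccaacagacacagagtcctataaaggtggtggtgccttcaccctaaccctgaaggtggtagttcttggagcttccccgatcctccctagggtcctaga

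The Cdkn1a window had 2 half-sites, with first bases at -73 and -51 from the start, and those of Bax, Ccng1 and Mdm2 had 1 each, at -201, -185 and -186. The second Cdkn1a start, at chr17:29093519-29093818, had 0. Beside these sequences stand changes of 0.76 and 0.70 for Cdkn1a, 0.54 for Bax, 0.27 for Ccng1 and 0.06 for Mdm2, and no test was made of response against half-sites. Ephx1, Phlda3 and Gdf15 had no half-site in their windows and changes of 0.48, 0.53 and 0.97, and Sesn1 and Gadd45a had 1 each and changes of -0.14 and -0.12. Ccng1, cyclin G1, had an unadjusted limma p of 0.0692. In Cyp1a1 the GCGTG lay at -54.

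No rise of the cytochrome P450 targets passed the test in these lungs. Cyp1a1 read 0.64, 0.84, 0.44, 1.51 and 1.57 in D0 lungs and 0.45, 0.37, 2.63, 1.13 and 1.12 in D3 lungs. D3 mouse 18 was high, and the other 4 D3 lungs were each below the D0 lung of their slide. The change was 0.14 ± 0.34 (SE, n = 5), with an adjusted p of 0.88 in limma, and without D3 mouse 18 it was -0.32. Cyp1b1 changed by 0.08 ± 0.12, with an adjusted p of 0.769. Cyp1a2 was not well above background on any D0, D1 or D2 lung and was above it on 3 of 5 D3 lungs, so it entered no test. Of the 12 receptor targets tested, 6 had higher means and the median was -0.02. Arnt, the partner of the receptor, was higher at 0.17, and Tiparp, a receptor-induced ADP-ribosyltransferase, and Nfe2l2, which encodes Nrf2, were lower at -0.26 each, all at an unadjusted p under 0.05 and none at the adjusted p. D0 mouse 1 had a receptor list mean of 0.42, against -0.18 to -0.01 in the other D0 lungs, and without it the list median was 0.04. Nrf2 antioxidant genes had a median change of -0.02 over 17 genes, with Prdx1 highest in rank at 0.36 and an adjusted p of 0.0702, and DNA repair genes had 0.01 over 22 genes, and 0.10 with the processed signals, and cell cycle genes -0.01 over 19, and none of these lists had a member past the adjusted p.

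**Figure D2:**
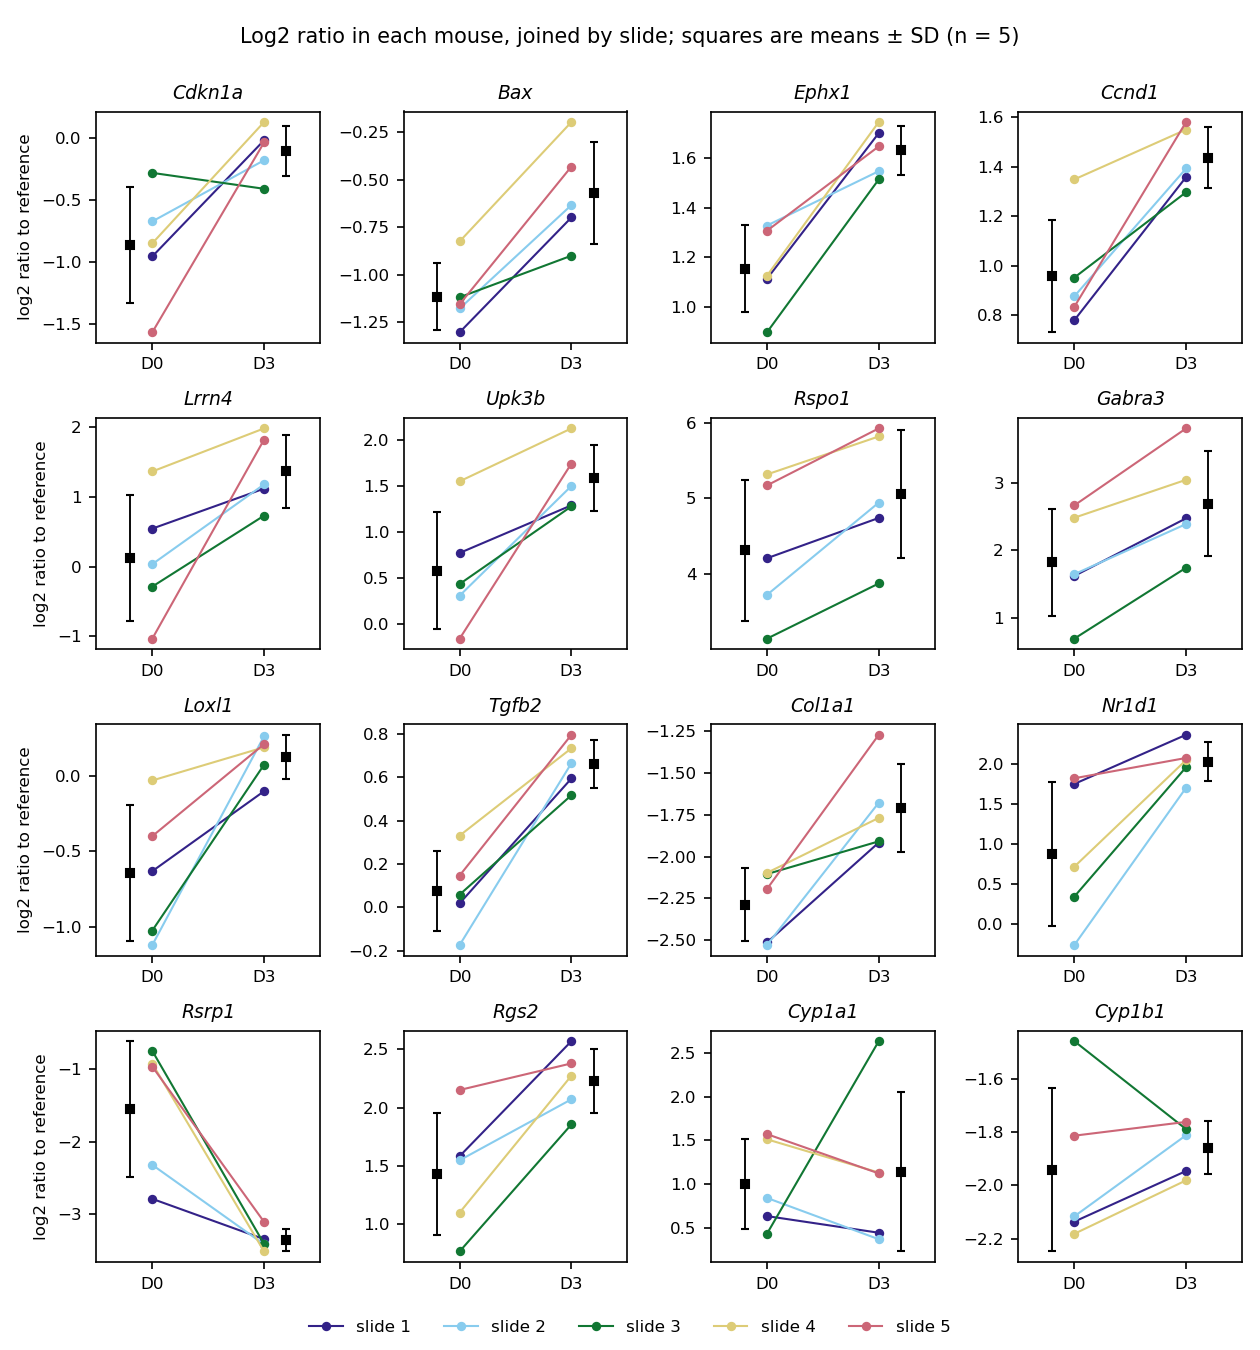
Log2 ratio to the reference (y axis) of 16 genes in each D0 and D3 lung (x axis), with the D0 and D3 lung of 1 slide joined by a line in the slide's colour and squares with bars for the mean ± SD of 5 mice. Bax, Ephx1 and Tgfb2 rose on all 5 slides and Rsrp1 fell on all 5, while Cyp1a1 was higher on 1 slide only.

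Markers of the mesothelium lay above their vehicle level throughout, and 3 of them rose. All 13 tested genes of the list had higher means in D3 lungs, the median change was 0.46, 7 had an unadjusted p under 0.05, against 9.38% of all probes on the higher side, and Lrrn4, Upk3b and Rspo1 passed the adjusted p and were called. The share of all probes called higher is 0.0548%. The list mean was -0.09, -0.18, -0.05, 0.62 and -0.31 in the D0 lungs and 0.31, 0.47, 0.09, 0.79 and 0.84 in the D3 lungs. D0 mouse 4 was high among the vehicle lungs, and the groups overlapped, although the D3 lung was higher on each slide. The list ran at much the same height at the lower doses, with medians of 0.44 at D1 and 0.43 at D2, and its D3 median was 0.38 without D0 mouse 2 and 0.54 without D0 mouse 4.

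Lrrn4, a membrane protein with leucine-rich repeats that marks mesothelial cells, read 0.55, 0.04, -0.29, 1.37 and -1.03 in D0 lungs and 1.12, 1.18, 0.73, 1.99 and 1.83 in D3 lungs. D0 mouse 4 lay within the D3 range, and D0 mouse 5 was the lowest. The change of 1.24 ± 0.24 (SE, n = 5), 2.37-fold, was the largest of the called rises, with an adjusted p of 0.038 in limma. Upk3b, a uroplakin of urothelium and mesothelium, read 0.77, 0.31, 0.43, 1.55 and -0.16 in D0 lungs and 1.29, 1.498, 1.28, 2.12 and 1.74 in D3 lungs. Again D0 mouse 4 alone reached the D3 range, and the change was 1.01 ± 0.18, with an adjusted p of 0.031. Rspo1, a secreted amplifier of Wnt signalling, was at 4.21, 3.73, 3.15, 5.32 and 5.17 in D0 lungs and 4.74, 4.95, 3.88, 5.82 and 5.92 in D3 lungs. The groups overlapped, and the differences within slides, from 0.50 to 1.22, were all positive. Its change was 0.75 ± 0.11, with an adjusted p of 0.0154. Without D0 mouse 4 the changes were 1.41 for Lrrn4, 1.16 for Upk3b and 0.84 for Rspo1, with adjusted p-values of 0.0387, 0.0278 and 0.0067. Without D0 mouse 2 these were 0.116, 0.107 and 0.0573, and all of them lost the call. Of the other members, Upk1b changed by 0.48 (adjusted p 0.0544), Gpm6a by 0.63 (0.0631) and the transcription factor Wt1 by 0.71 (0.268).

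Gabra3, a subunit of the GABA-A receptor and on none of the lists, had an adjusted p of 0.00481, the lowest of the comparison and shared with Thyn1, which changed by 0.56. It read 1.62, 1.65, 0.69, 2.48 and 2.67 in D0 lungs and 2.48, 2.39, 1.74, 3.05 and 3.81 in D3 lungs. Levels differed more between slides than between doses, and the D3 lung was higher by 0.56 to 1.14 on every slide. The change was 0.87 ± 0.10 (SE, n = 5), and the adjusted p in limma was 0.018 without D0 mouse 1 and 0.028 without D0 mouse 2.

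Genes of collagen, elastic matrix and crosslinking mostly had higher means, and 5 rose. Of 30 tested, 26 had higher means, the median change was 0.28, 16 had an unadjusted p under 0.05 on the higher side and 0 on the lower side, against 9.38% and 6.21% of all probes. The adjusted p was passed by 5, against 0.422% of all probes on the higher side, among them Tgfb2, Loxl1, Col1a1 and Mfap4. Without D0 mouse 1 none of the list passed it, and without D0 mouse 2 none did either, the 2 values being 0.0526 and 0.0857 for Tgfb2, 0.0657 and 0.107 for Loxl1 and 0.0776 and 0.124 for Col1a1. Over all probes, 7.38% were higher and 5.65% lower on all 5 slides, while 13 of these 30 genes were higher on all 5. The medians were 0.12 at D1 and 0.18 at D2. The list mean ran from -0.13 to 0.24 in D0 lungs and from 0.03 to 0.51 in D3 lungs, with overlap.

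Tgfb2, a ligand of the TGF-beta family that induces matrix genes, read 0.02, -0.17, 0.06, 0.33 and 0.15 in D0 lungs and 0.60, 0.67, 0.52, 0.74 and 0.80 in D3 lungs. The groups did not overlap, and the change was 0.59 ± 0.10 (SE, n = 5), with an adjusted p of 0.0231 in limma. Its second probe changed by 0.44, with an adjusted p of 0.0702. Loxl1, a lysyl oxidase that crosslinks elastin, read -0.63, -1.12, -1.02, -0.03 and -0.40 in D0 lungs and -0.10, 0.26, 0.07, 0.19 and 0.21 in D3 lungs. D0 mouse 4 overlapped D3 mouse 16, the change was 0.77 ± 0.14 with an adjusted p of 0.0323, and the second probe changed by 0.61, with an adjusted p of 0.0503. Col1a1, a chain of type I collagen, was at -2.51, -2.53, -2.10, -2.10 and -2.19 in D0 lungs and -1.92, -1.68, -1.91, -1.77 and -1.27 in D3 lungs, with no overlap. Its change was 0.58 ± 0.11, with an adjusted p of 0.0358. The microfibril protein Mfap4 changed by 0.52 ± 0.11 (adjusted p 0.0423) and was higher on all 5 slides.

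Among structural cell types, 8 of 9 smooth muscle markers had higher means, with a median change of 0.29, as did 13 of 14 endothelial markers, with 0.21. None of those passed the adjusted p, and 4 and 5 of them had an unadjusted p under 0.05, against 9.38% of all probes. The endothelial median was 0.0052 under scale normalization between arrays. Alveolar type 2 markers had a median of 0.15 over 12 genes, which turned to -0.11 under the same normalization. Etv5, a transcription factor of alveolar type 2 cells, passed with a change of 0.46 ± 0.10 and an adjusted p of 0.0493, and Sftpb, surfactant protein B, had 0.45 and 0.0638 on its brightest probe and 0.41 and 0.0351 on another, higher on all 5 slides. Markers of alveolar type 1, club and ciliated cells had medians of 0.16, 0.16 and 0.15, with no member past the adjusted p. Under scale normalization the first of these turned to -0.06 and the second to -0.09, and the ciliated median was -0.02 without D3 mouse 18. The fat list had a median of 0.21, and of -0.18 without the high D3 lung of mouse 20. The skeletal muscle median was -0.99 with all lungs and 0.15 without D0 mouse 1, and the squamous median was -0.74 and -0.05. The part of cell composition in the changes above was not tested.

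By the brightest probe of each gene, which stood for it in the counts, no gene of the MHC class II, chemokine or interferon lists passed the adjusted p. All 8 MHC class II genes had higher means, with a median of 0.30 and 4 at an unadjusted p under 0.05, against 9.38% of all probes on the higher side, and H2-Oa was at 0.59. Of 27 chemokines and receptors, 22 had higher means and 9 an unadjusted p under 0.05 on the higher side and 0 on the lower side. Without D0 mouse 1 these were 4 and 2. Ccl6, a myeloid chemokine, changed by 0.62, with an adjusted p of 0.0544, and Cx3cr1, the fractalkine receptor, by 0.66. A second probe of Cx3cr1 changed by 0.51, with an adjusted p of 0.0493, and was well above background on 3 of 5 D0 lungs. Interferon-stimulated genes had a median of -0.10 over 20 genes, with 3 higher means. Wnt genes had a median of 0.06 over 30, and besides Rspo1 only Wnt2, a ligand needed for lung formation, passed, with a change of 0.48 and an adjusted p of 0.0476. Wnt2 ran from 0.42 to 2.52 in D0 lungs and from 0.91 to 3.14 in D3 lungs, with wide overlap, and was higher on all 5 slides. The secreted inhibitor Sfrp2 was at 1.09, with an adjusted p of 0.0818.

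**Figure D3:**
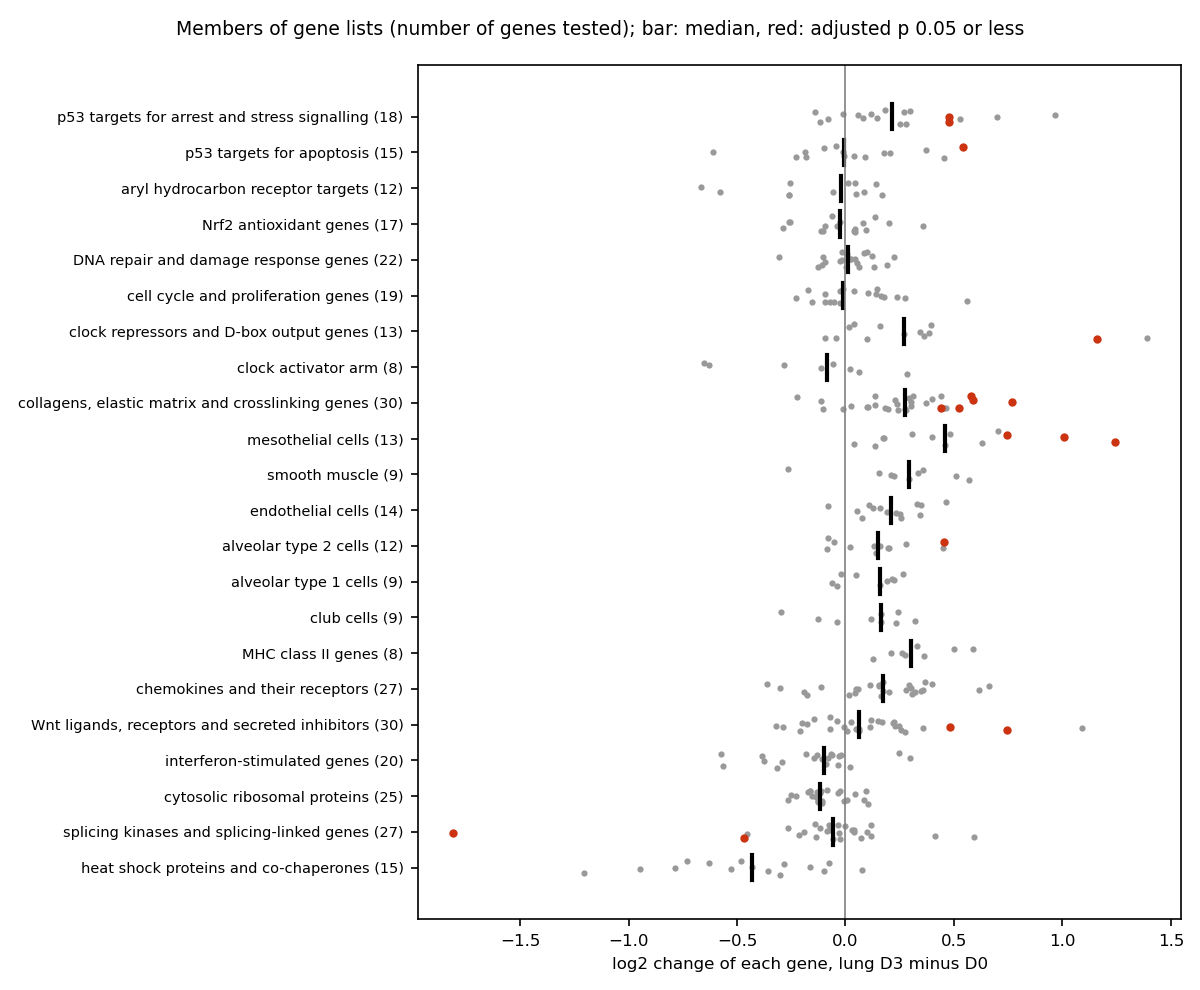
Change of each tested gene, D3 minus D0 in lung on the log2 scale (x axis), for 22 gene lists (rows, with the number of genes tested), with a bar at the list median and red points for members at an adjusted p of 0.05 or less. Mesothelial markers lie at 0.46 by median with all 13 members right of 0, and heat shock genes at -0.43 with 14 of 15 left of 0.

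Of the clock genes, Nr1d1 rose. Mammalian tissue clocks are built of a feedback loop in which Bmal1 (Arntl) and Clock switch on repressors such as Nr1d1 and the Per genes, which shut them off. Nr1d1, which encodes the nuclear receptor Rev-erb alpha, read 1.75, -0.27, 0.34, 0.71 and 1.82 in D0 lungs and 2.36, 1.70, 1.96, 2.05 and 2.07 in D3 lungs. The D0 lungs were spread widely and the D3 lungs narrowly, with D0 mice 1 and 5 in the D3 range. The change was 1.16 ± 0.25 (SE, n = 5), at an adjusted p of 0.0482 (limma), which was 0.0597 without D0 mouse 1 and 0.127 without D0 mouse 2. Among the 13 clock repressors and outputs, 11 had higher means and 6 an unadjusted p under 0.05, against 9.38% of all probes, which were 4 without D0 mouse 1 and 5 without D0 mouse 2. The median was 0.27 at D3, 0.33 at D2 and -0.07 at D1. Dbp, an output transcription factor, changed by 1.39 ± 0.39 but had an adjusted p of 0.106. In the activator arm, Arntl was at -0.63 (adjusted p 0.246) and Nfil3, a repressor of Dbp targets, at -0.65 (0.0567), both lower on all 5 slides. The time of day at which each mouse was killed was not given in the sources used here, and its part was not tested.

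Of 27 splicing-linked genes, Rsrp1 and Rbm5 fell, against 0.145% of all probes lower at the adjusted p, and the list median was -0.06. Rsrp1, an arginine- and serine-rich protein linked to splicing, read -2.79, -2.32, -0.75, -0.93 and -0.97 in D0 lungs and -3.35, -3.42, -3.41, -3.52 and -3.11 in D3 lungs. All D3 lungs were below all D0 lungs, and D0 mice 1 and 2 were nearest to them. Its change of -1.81 ± 0.33 (SE, n = 5), 3.51-fold lower, was the largest of all called changes, with an adjusted p of 0.0304, or 0.0717 without D0 mouse 2. Rbm5, a splicing regulator, fell by 0.47, with an adjusted p of 0.0423. The other 25 genes of this list did not pass, and Tra2a, a splicing factor, was at -0.45 with an adjusted p of 0.0512. The other called falls were 2 probes of ENSMUST00000099683, at -0.67 and -0.81, and 1 of ENSMUST00000099050, at -0.67, transcripts without a symbol in the tables used here. These 3 probes were well above background on 4, 3 and 2 of 5 D3 lungs, so that the lower level is partly a background reading.

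Heat shock proteins, chaperones that rise under protein stress, were lower in D3 lungs by median but were sensitive to 1 array. Of 15 genes, 14 had lower means and 10 an unadjusted p under 0.05, against 6.21% of all probes on the lower side. None passed the adjusted p, and the median change was -0.43. Without D0 mouse 2, the high array named above, 6 had an unadjusted p under 0.05 and the median was -0.22. Hspa8 was at -0.78 and at -0.49 without that mouse, and Hspa1a at -0.95 and -0.39. The medians were -0.26 at D1 and -0.51 at D2. Ribosomal protein genes had a median of -0.12, with 20 of 25 lower means and 12 at an unadjusted p under 0.05, against the same 6.21%, which were 7 without D0 mouse 1 and 6 without D0 mouse 2. The median was -0.0026 with the processed signals and -0.028 with the deposited ratios.

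The remaining called genes rose, and none was matched to a list by its symbol. Rgs2, a regulator that shuts off G protein signalling, read 1.58, 1.55, 0.77, 1.10 and 2.15 in D0 lungs and 2.57, 2.07, 1.86, 2.27 and 2.38 in D3 lungs, with overlap only from D0 mouse 5. Its change was 0.80 ± 0.14, with an adjusted p of 0.0286, or 0.0593 without D0 mouse 1 and 0.0857 without D0 mouse 2, and that of its second probe was 0.41, with 0.128. Wscd2 read 2.31, 1.64, 1.73, 2.53 and 2.57 in D0 lungs and 2.65, 2.75, 2.69, 2.92 and 3.18 in D3 lungs, with no overlap and a change of 0.68 ± 0.12. Cygb, cytoglobin, changed by 0.71 ± 0.15, Ccdc184 by 0.65 ± 0.13 and Eva1a by 0.64 ± 0.11, with adjusted p-values of 0.0452, 0.0369 and 0.0286. Gyg, glycogenin, the primer of glycogen synthesis, changed by 0.59 on 1 probe (adjusted p 0.0482) and 0.35 on the other (0.22), and Fam177a2 by 0.78 (0.0468) and 0.09 (0.593). Transcripts ENSMUST00000095785 and NM_007730 rose by 0.60 and 0.59. Neither had a symbol in the tables used here, so whether they belong to a list was not checked. Over all probes, all 5 D3 lungs were above all 5 D0 lungs for 0.442% and below them for 0.384%, and the called probes that did this were Wscd2, ENSMUST00000095785, Tgfb2 and Rsrp1, 4 of 21.

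The lower doses shared the D0 lungs with D3, so their values are only set side by side. No probe was called at D1, 0% of those tested, or at D2, also 0%, while 2913 and 3800 probes had an unadjusted p under 0.05. At D1 and D2, Lrrn4 had changes of 0.83 and 1.02, beside 1.24 at D3. Tgfb2 had 0.29 and 0.41 beside 0.59, and Rsrp1 -1.01 and -1.34 beside -1.81. Bax had 0.17 and 0.27 beside 0.54, Ephx1 0.04 and 0.16 beside 0.48, and Cdkn1a (NM_001111099, mostly at background in D0 lungs) -0.05 and 0.05 beside 0.76. Since the genes were picked by their D3 change and the D0 lungs are shared, no order over the doses is read from these values.

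**Figure D4:**
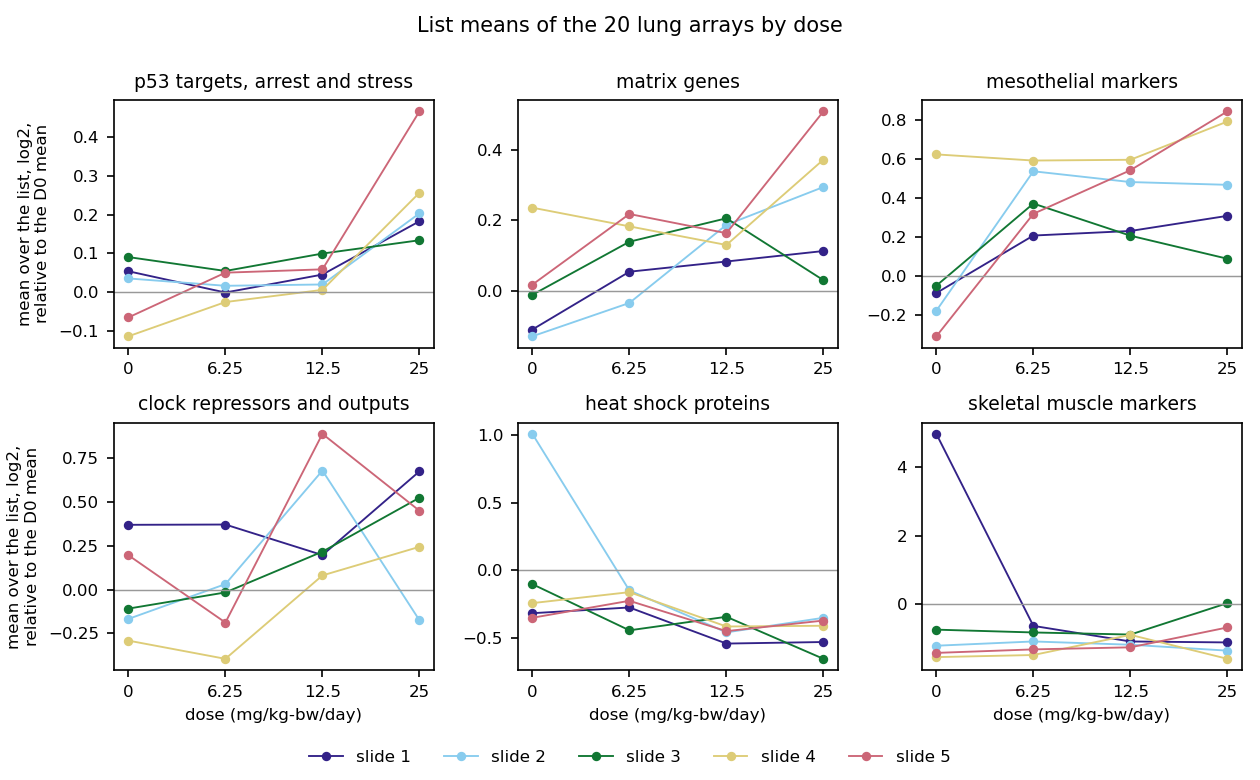
Mean over each of 6 gene lists, relative to the D0 mean on the log2 scale (y axis), in the 20 lung arrays by dose in mg/kg-bw/day (x axis, doses spaced evenly), with arrays of 1 slide joined in 1 colour. The p53 list lies at 0.13 to 0.47 at 25 mg/kg-bw/day and at -0.11 to 0.10 at the other doses, and the skeletal muscle and heat shock panels each hold 1 vehicle lung far above the rest.

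In the livers and forestomachs of the same mice none of the called lung probes passed. Of 16 tested in liver, 10 had the lung sign and the lowest adjusted p was 0.174, and of 19 tested in forestomach, 17 had the lung sign and the lowest was 0.772. Without the vehicle forestomach of mouse 2, 15 of the 19 had the lung sign and 0 passed. Rsrp1 was at -0.87 in liver and -1.30 in forestomach, both with the lung sign, while Rspo1 was at 0.90 in forestomach and -0.32 in liver. Nr1d1 was at 0.85 in liver and 0.37 in forestomach. Cdkn1a (NM_007669) was at -0.26 in liver and -0.25 in forestomach. The difference between tissues was itself tested over 33255 probes: 1 probe, or 0.00301%, passed between lung and liver and 0, or 0%, between lung and forestomach, with 2555 and 2317 at an unadjusted p under 0.05 in limma. That probe, designed on ENSMUST00000120540 and chosen after its values were seen, had a difference of 0.83 ± 0.14 (SE) and an adjusted p of 0.0204, and 0 passed with the mouse as a block. Among the probes named here, the lowest adjusted p was 0.124 against liver and 0.107 against forestomach, so that no named gene was shown to differ between tissues. Without the vehicle forestomach of mouse 2, 4 probes passed between lung and liver and 0 between lung and forestomach, and the lowest adjusted p of a probe named here against forestomach was 0.215.

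**Figure D5:**
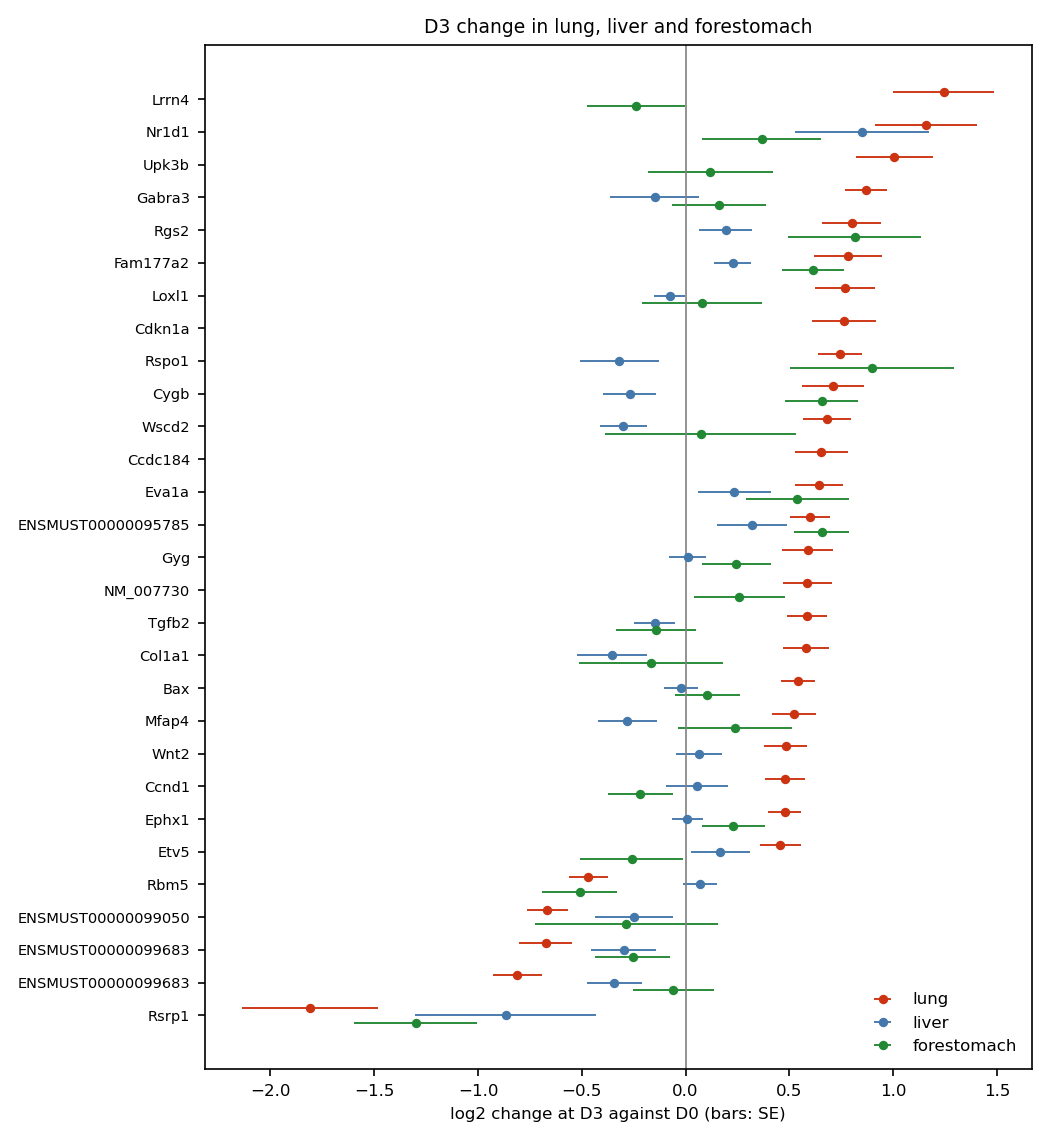
Change at D3 against D0 on the log2 scale (x axis, points with bars of 1 SE, n = 5 mice a group) in lung, liver and forestomach for the probes named above that passed the adjusted p in lung (rows). Rsrp1 lies left of 0 in all 3 tissues, from -1.81 in lung to -0.87 in liver.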

How the data were processed

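Total RNA of 60 tissues (lung, liver and forestomach of 20 mice) was hybridised on 2-colour Agilent arrays with tissue in Cy5 and Universal Mouse Reference RNA in Cy3, and per the file headers the intensity columns came from Agilent Feature Extraction 10.7.3.1 with mm9 positions. The deposited intensity values used were the median signals of each spot, without background subtraction. The deposited log2 ratios, normalized by the authors, were used as an alternative and correlated with the ratios made here at 0.9964 to 0.9988 in lung. Of 62976 spots, 3671 controls and 0.0361% outlier flags were left out, and no spot was saturated. Log2 ratios were normalized within arrays by loess and averaged per probe. Gene symbols were found for 26413 of 55681 probes (47.4%) through RefSeq accessions, and a gene of a list was represented by its brightest probe.

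Lung probes were kept where the Cy5 signal was flagged well above background on 5 or more of the 20 lung arrays. limma 3.58.1 in R 4.3.3 fitted dose and slide over all 20 lung arrays (12 residual degrees of freedom), with Benjamini-Hochberg adjustment. The study's methods name MAANOVA, which was not run. Tissue differences were fitted over all 60 arrays. Numbers of the same mouse mark the same animal across tissues, and deviations from group means correlated at -0.204 to 0.197 between lung and liver and at -0.00113 to 0.429 between lung and forestomach, which share slides. The fit was tested on simulated data. The number of arrays, 5 a group, limits the precision.

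The members and gene lists were chosen with earlier results of these data known. Genes named were every called probe, every list member at the adjusted p, up to 3 members with the lowest unadjusted p in each list without one, and Cyp1a1, Cyp1a2, Cyp1b1 and Cdkn1a. Other genes were named after their values were seen, and results for some genes are not reported here. Alternatives concerned the background correction, normalization, filter, slide term, samples fitted and leaving out each mouse. Scale normalization, leaving out D0 mice 1 and 2 together and leaving out the vehicle forestomach of mouse 2 were chosen after seeing the data.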

Additional observations from a re-analysis of the deposited data

Results flagged for a closer look

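Lists were checked in each lung group of 5 for an array far from the others, and 6 of 70 list groups and 0 of 66 probe groups had one, where chance flags about 1 in 20 groups. In the vehicle lung of mouse 1 the mean was 4.98 for skeletal muscle, 2.82 for squamous epithelium and 0.42 for aryl hydrocarbon receptor targets. In the vehicle lung of mouse 2 it was 1.01 for heat shock proteins, and in that of mouse 4 it was 0.62 for mesothelial cells. In the high-dose lung of mouse 20 it was 1.87 for fat cells. The source of these values was not tested.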

How the results depend on the processing

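The counts are given as called probes, probes at the adjusted p alone and list genes at the adjusted p, which were 21, 176 and 16. They were 0, 0 and 0 without the slide term, with D0 and D3 arrays only, and without D0 mice 1 and 2. They were 11, 76 and 12 with slide as a random block, 40, 347 and 24 with normexp, 5, 11 and 1 with processed signals, 18, 135 and 13 with the deposited ratios, 15, 77 and 10 with no filter, 28, 423 and 26 with a filter on all arrays, and 14, 65 and 9 with scale normalization. Leaving out 1 mouse gave 1 to 59 calls, 2 to 482 at the adjusted p and 0 to 28 list genes. The lowest calls came without D0 mouse 2 or D3 mouse 17 and the highest without D0 mouse 5. D1 and D2 stayed at 0 under the alternatives of slide term, signal, filter and variance for which they were counted. They were not counted with a mouse left out, with scale normalization or without D0 mice 1 and 2.

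Lung minus liver had 1 probe and lung minus forestomach 0. With the mouse as a replicate block, and without the slide term, both were 0. They were 2 and 0 with normexp, 0 and 1 with processed signals, 4 and 0 with the deposited ratios and 0 and 0 with trend and robust fits, and 0 to 3 and 0 to 13 with 1 mouse left out. Without the vehicle forestomach of mouse 2 they were 4 and 0. Medians of alveolar type 2, type 1 and club markers turned to -0.11, -0.06 and -0.09 under scale normalization. Signs turned for Wnt2 with processed signals (-0.025) and for Cyp1a1 without D0 mouse 3 (-0.08) or D3 mouse 18 (-0.32), and with 1 mouse left out Cyp1a1 ran from -0.32 to 0.35. Over the probes named and the list medians, 1110 values under an alternative were counted as the same, 366 lost the threshold, 10 moved and 3 reversed. A probe was the same where it kept its direction and side of the threshold. A list median was the same where it moved by no more than the SD over slides of the D3 minus D0 list mean, whatever its sign. The 3 reversals are therefore of probes only. Medians counted as the same could turn sign, as for skeletal muscle, from -1.44 to 0.18, and fat cells, from -0.18 to 0.74. The cause was not tested.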

Other observations

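One transcribed region of the array design, mm9 chr17:29183003-29217681, held 3 of the probes at the adjusted p, the most of any such region, and was chosen after its values were seen. On its reverse strand 4 of 5 probes were tested. Of these, 3 changed by 0.57, 0.56 and 0.48, with adjusted p-values of 0.0482, 0.0418 and 0.0244 in limma, and all 5 D3 lungs lay above all 5 D0 lungs on each of them. They were well above background on 2, 3 and 4 of 5 D0 lungs and on all 5 D3 lungs, so that the vehicle level is partly a background reading and they could pass the filter through the D3 lungs. The fourth changed by 0.02, and the 1 tested probe of the forward strand by -0.10. The region lies on chromosome 17, which also carries Cdkn1a, and no gene was assigned to it, since no mm9 annotation was used.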
